A study of Mus musculus with 12 samples.

Results

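Expression of 9 genes of the STAT and JAK family was measured in B16F10 cells, a mouse melanoma cell line derived from C57BL/6 mice. The genes were Stat2, Stat3, Stat4, Stat5a, Stat5b, Stat6, Jak1, Jak2 and Tyk2, chosen by name through their Ensembl identifiers, out of 54232 genes in the count table. They were followed across 4 groups of 3 libraries each. WT cells were left untreated in culture. Lyso cells were incubated with T-cell-derived secreted granules, called lysosomes in the sample labels, for 48 hours according to those labels, while the methods text gives a shorter time and names a coated, low-adherence plate. The cell lines established from relapsed tumors (Relapsed: ITF1, Rel and ITM) came from B16F10 tumors grown under the skin of mice, which were 6 weeks old by the labels and older by the methods text, and relapsed after immunotherapy with an antibody to CD40, TNFα and an antibody to the melanoma antigen TRP1. They were sorted and cultured to confluency before RNA extraction, and each is a single line. Tumor cells (Tumor 1, 3 and 4) were sorted from relapsed tumors of the same kind, and their RNA was extracted at once. No group holds tumor cells from untreated mice, so growth in the animal, the immunotherapy, the sort and the relapse cannot be told apart in Tumor. Nothing in the labels says whether the 3 libraries of a group came from separate cultures or animals, so the tests below measure the spread between these libraries only.

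Janus kinases (Jak1, Jak2, Jak3 and Tyk2) sit on the inner side of cytokine receptors and phosphorylate each other, the receptor and then STAT proteins, which pair, enter the nucleus and bind DNA. STAT3 carries signals of the IL-6 family, which act through the shared receptor chain encoded by Il6st, and STAT2 joins IRF9 in the complex ISGF3, which transmits type I interferon signals. STAT4, STAT5 and STAT6 are best known downstream of IL-12, of growth hormone, prolactin and IL-2, and of IL-4, respectively, and the SOCS proteins close the loop by shutting off receptors and kinases. The libraries report transcript levels and say nothing of phosphorylation.

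The libraries held between 1667398 and 16402629 counts on genes. At most 5049496 counts were found in WT 1, WT 2 and each Tumor library, and at least 10895611 in WT 3 and each Lyso or Relapsed library, so depth and group partly coincide. A count of 3, taken as the floor, stood for 0.183 to 1.80 counts per 1000000 counts on genes (CPM). All 10 melanocyte markers, among them Pmel, Dct and Tyrp1, exceeded 3 counts in each of the 12 libraries. Fibroblast markers summed to 7611–10579 CPM in Tumor, with 10 of 10 genes above 3 counts, against 95.8–151 CPM in WT, 81.8–147 in Relapsed and 141–162 in Lyso. Col3a1, a fibrillar collagen gene, had 14314 to 20653 counts in the Tumor libraries and at most 1 count in any other library. The T and NK cell list summed to 12.4–13.1 CPM in Lyso, 1.27–9.06 CPM in WT, 1.14–4.22 CPM in Relapsed and 4.23–11.3 CPM in Tumor. Myeloid markers reached 49.4–79.6 CPM in Tumor and endothelial markers 49.7–54.9 CPM, against at most 46.8 and 23.6 CPM in the cultured groups. WT 3 stood apart from the other WT libraries in interferon-induced genes: the 24 ISGF3 targets described below summed to 1245 CPM in WT 3 against 225 in WT 1 and 177 in WT 2, and each of the 24 was highest in WT 3 among the WT libraries. They summed to 197–554 CPM in Relapsed, 2199–2464 CPM in Lyso and 472–929 CPM in Tumor. Results against WT that turn on WT 3 are therefore also given without it. In these bulk samples, fewer cells of a type and less RNA per cell cannot be told apart.

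**Figure D1:**
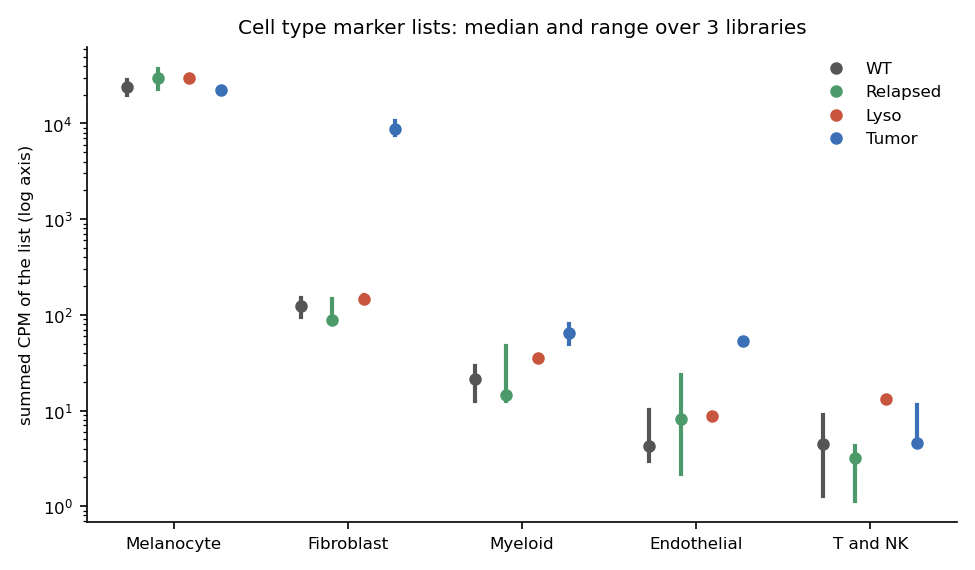
Summed CPM (log axis) of 5 lists of cell type markers, with the median (point) and range (bar) of the 3 libraries in each of the groups WT, Relapsed, Lyso and Tumor. Fibroblast markers reach 7611–10579 CPM in Tumor and at most 162 CPM elsewhere, while melanocyte markers lie between 19810 and 37434 CPM in all libraries.

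The promoters of the 3 genes that differed most from WT are shown here, from RefSeq on GRCm38.p6, each running from 250 bases before to 50 bases after the annotated start and written in the direction of transcription. Promoters were found for all 9 genes. They were searched on both strands for TTCNNNGAA, the palindrome called GAS that STAT dimers bind, and for GAAA, 2 bases of any kind and GAAA again, a form of the element called ISRE that ISGF3 binds. Capitals mark a match. Stat2 lies at chr10:128270248-128270547 on the plus strand, Stat3 at chr11:100939491-100939790 on the minus strand and Jak2 at chr19:29251553-29251852 on the plus strand.
Stat2: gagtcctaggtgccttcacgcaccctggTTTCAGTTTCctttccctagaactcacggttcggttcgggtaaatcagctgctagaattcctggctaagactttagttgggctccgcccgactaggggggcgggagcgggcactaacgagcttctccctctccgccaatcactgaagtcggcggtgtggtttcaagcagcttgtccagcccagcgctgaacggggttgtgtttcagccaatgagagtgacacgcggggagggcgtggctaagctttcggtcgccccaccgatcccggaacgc
Stat3: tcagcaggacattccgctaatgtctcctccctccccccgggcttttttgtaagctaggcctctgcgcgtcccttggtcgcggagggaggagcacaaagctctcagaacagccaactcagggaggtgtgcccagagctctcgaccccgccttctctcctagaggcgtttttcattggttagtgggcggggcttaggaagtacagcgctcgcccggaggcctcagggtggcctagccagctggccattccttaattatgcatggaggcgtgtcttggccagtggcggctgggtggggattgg
Jak2: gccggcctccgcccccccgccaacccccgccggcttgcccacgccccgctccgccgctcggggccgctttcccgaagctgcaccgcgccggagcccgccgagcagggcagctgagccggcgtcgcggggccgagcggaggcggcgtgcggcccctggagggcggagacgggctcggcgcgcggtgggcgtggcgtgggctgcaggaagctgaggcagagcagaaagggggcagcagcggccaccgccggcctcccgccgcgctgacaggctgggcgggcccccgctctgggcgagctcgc
The Stat2 promoter held 1 ISRE match, TTTCAGTTTC, which begins 222 bases before the start. The Stat3 and Jak2 windows held neither motif in this strict form. Of the remaining members, only a second Stat4 promoter (chr1:52007990-52008289, plus strand) held a match, the ISRE sequence GAAAGTGAAA beginning 97 bases before the start. Among all 32851 mouse promoters of this length, 3.44% held the ISRE form and 8.30% the GAS form. These letters alone do not show that a factor binds.

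Per kilobase of exon, the family in WT cells was led by Stat6 at 24.4 ± 3.56 CPM per kb and Jak1 at 21.3 ± 4.24 (mean ± SD, n = 3 here and in the values that follow in this form), whose libraries overlapped. Below them came Stat5b (9.89 ± 2.24), Jak2 (8.61 ± 1.61), Tyk2 (6.82 ± 1.77) and Stat3 (5.65 ± 0.801), each overlapping its neighbour. Stat5a (4.24 ± 0.764) lay below Stat3 in all libraries and overlapped Stat2 (2.98 ± 1.67), and Stat4 was close to 0. The order rests on exon length: with the longest transcript as length, Jak1 stood at 31.3 CPM per kb and Stat6 at 28.5. In Relapsed the leading pair was the same, Stat6 at 27.7 ± 8.33 and Jak1 at 20.8 ± 3.17 CPM per kb.

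In Lyso the order changed at the top. Stat3 led at 58.2 ± 0.119 CPM per kb, followed by Stat2 at 33.8 ± 0.390, Stat6 at 25.9 ± 1.03 and Jak1 at 18.9 ± 0.544. Successive genes among these did not overlap. The SD of Stat3 in Lyso was 0.205% of its mean, on 5874 to 6830 counts per library. That is less than the counting error of such counts, so this SD is no estimate of the spread between cultures. In Tumor only Stat3 had joined the top: Stat6 stood at 30.7 ± 1.46 and Stat3 at 30.3 ± 1.97 CPM per kb, with overlapping libraries, and Stat2 remained eighth of 9 at 4.70 ± 2.17. As a share of the summed level of the 9 genes, a measure free of scaling between libraries, Stat3 made up 5.53–7.44% in WT, 6.63–10.01% in Relapsed, 33.1–34.0% in Lyso and 24.6–25.2% in Tumor. Stat2 made up 1.93–5.35% in WT, 19.3–19.7% in Lyso and 2.48–5.50% in Tumor.

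**Figure D2:**
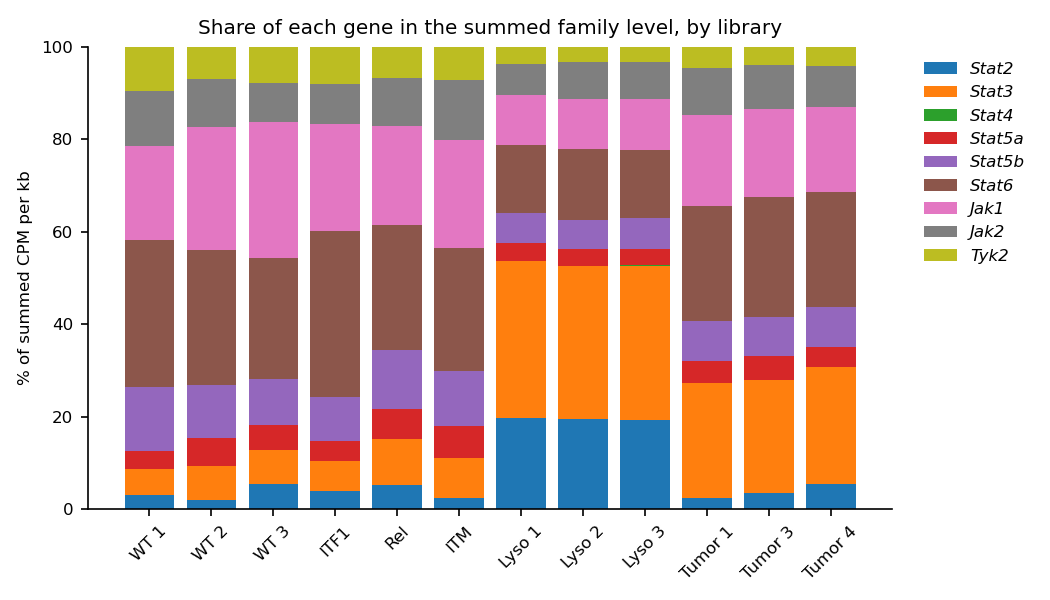
Share (%) of each of the 9 genes in their summed CPM per kb, with 1 bar for each of the 12 libraries. Stat3 takes 33.1–34.0% in Lyso and 24.6–25.2% in Tumor against 5.53–7.44% in WT, and Stat2 takes 19.3–19.7% in Lyso.

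Stat3, the transducer of IL-6 family signals, was raised in both Lyso and Tumor. Its level was 47.0, 52.4 and 62.0 CPM in the WT libraries. It was 553.8, 555.3 and 553.1 CPM in the Lyso libraries. In Tumor it was 276.3, 279.0 and 310.0 CPM. Among all genes tested, 26.8% lay below Lyso without overlap in Tumor, 20.1% above Relapsed and 21% above WT. For Stat3, the Lyso libraries all stood above the Tumor libraries, which all stood above WT and Relapsed. Against WT the log2 fold change was 3.35 (SE 0.18, adjusted p = 2.61e-06) in Lyso, a fold of 10.2, and 2.40 (SE 0.18, adjusted p = 1.72e-06) in Tumor, a fold of 5.29, by edgeR's quasi-likelihood test with Benjamini-Hochberg adjustment over 14924 genes. The Tumor level was lower than that of Lyso by a direct test, with a log2 fold change of -0.94 (SE 0.16, adjusted p = 0.00122, edgeR), and higher than that of Relapsed, with one of 1.96 (SE 0.17, adjusted p = 4.64e-06, edgeR). Exact permutation tests of 3 libraries against 3 cannot give a two-sided p below 0.1. The same tests were run at like depth. With deep WT 3 as the only control, Stat3 in Lyso had a log2 fold change of 3.15 (adjusted p = 0.00108, edgeR), where the lone WT library is assumed to vary like the other groups, and with shallow WT 1 and WT 2 alone, Stat3 in Tumor had one of 2.54 (adjusted p = 1.77e-05, edgeR). Counted against Jak1 within each library, there were 32.9–36.9 Stat3 counts per 100 Jak1 counts in WT, 37.7–61.5 in Relapsed, 394–418 in Lyso and 166–180 in Tumor. Fibroblast markers were high in the same Tumor libraries, as given above, and their part in the Tumor level of Stat3 was not tested. In Lyso those markers stood at 141–162 CPM.

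Stat2, the interferon-specific partner of IRF9, was raised in Lyso but did not pass the test in Tumor. The WT libraries had 16.4, 8.44 and 28.1 CPM, a spread of more than 3-fold with WT 3 the highest, and the Lyso libraries had 199.6, 202.7 and 198.2 CPM. The Tumor libraries had 17.2, 24.2 and 42.1 CPM. Among all genes tested, 15.8% lay above WT without overlap in Lyso and 15.3% above Relapsed, and 26.8% lay below Lyso in Tumor. For Stat2, all Lyso libraries lay far above the rest, while Tumor and WT overlapped. In Lyso the log2 fold change against WT was 3.35 (SE 0.44, adjusted p = 0.000843, edgeR), which ran from 2.82 with WT 3 as the only control (adjusted p = 0.0324, edgeR, under the same assumption) to 4.06 with WT 1 and WT 2 alone (adjusted p = 0.00199, edgeR). In Tumor it was 0.52 (SE 0.44, 95% interval -0.44 to 1.48, adjusted p = 0.462, edgeR), an interval that leaves room for a more than 2-fold rise. Leaving out 1 library moved this value from 0.10 (without Tumor 4) to 1.22 (without WT 3, adjusted p = 0.165, edgeR), and it did not pass in any of these fits. The direct test of Tumor against Lyso gave a log2 fold change of -2.83 (SE 0.43, adjusted p = 0.000416, edgeR). Expressed against Stat3 within the same library, there were 16.1–45.3 Stat2 counts per 100 Stat3 counts in WT, 35.8–36.5 in Lyso and 6.24–13.6 in Tumor. The ratio in Lyso thus fell inside the WT range, and in Tumor below it. The Stat2 promoter, printed above, held 1 ISRE match, a form present in 3.44% of all mouse promoters searched, and the Stat3 window held 0. The part of this match in the Stat2 level was not tested.

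**Figure D3:**
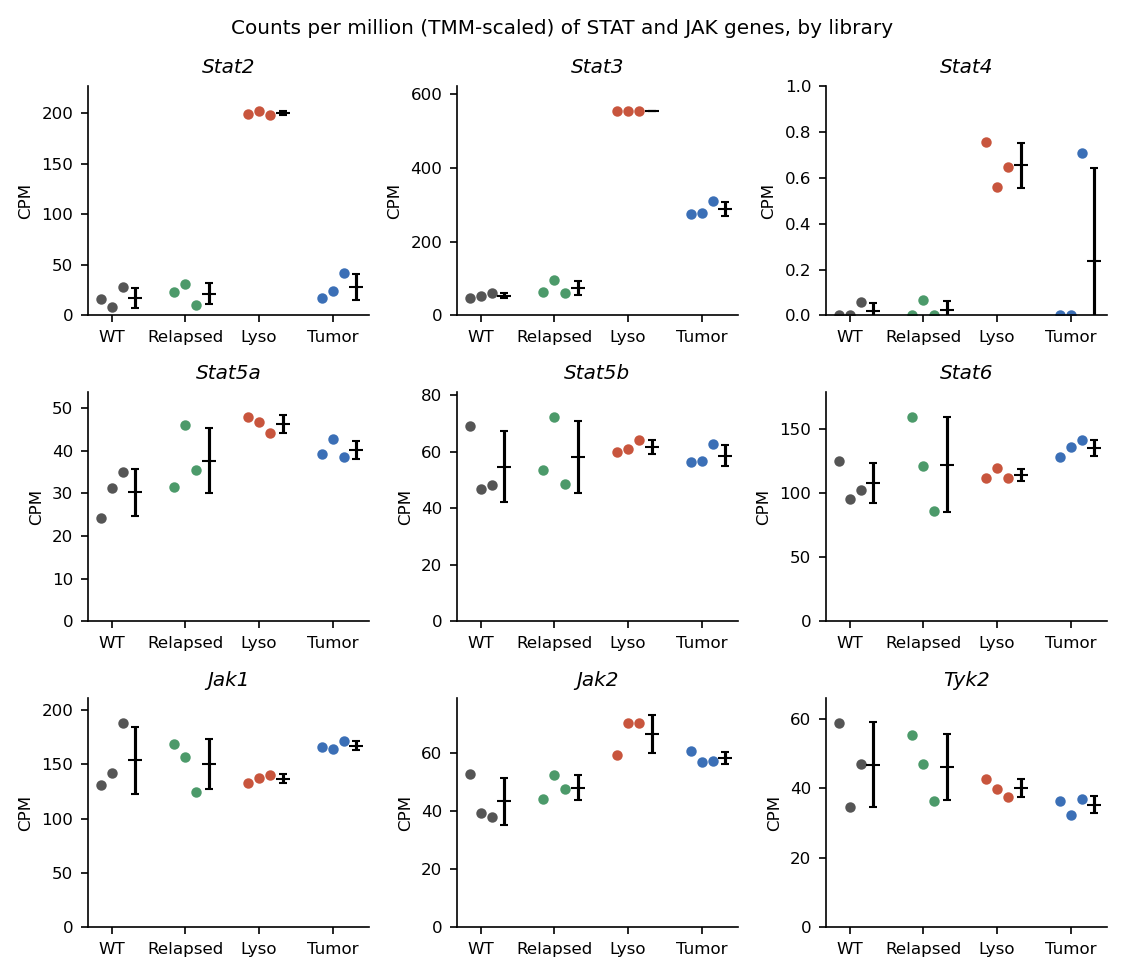
CPM of the 9 genes in each library (points) of WT, Relapsed, Lyso and Tumor, with the mean and SD of each group (black, n = 3) and axes from 0. Stat3 stands at 553.1–555.3 CPM in Lyso and 276.3–310.0 CPM in Tumor against 47.0–62.0 CPM in WT, and Stat2 at 198.2–202.7 CPM in Lyso against 8.44–28.1 CPM in WT.

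Stat4, the IL-12 transducer of T and NK cells, was nearly absent and failed the filter on low counts, so it was not tested across genes. It had 0, 0 and 1 counts in WT, 0, 1 and 0 in Relapsed, 8, 6 and 8 in Lyso and 0, 0 and 3 in Tumor. Among the genes that were tested, 15.8% lay above WT without overlap in Lyso and 15.3% above Relapsed. For Stat4, Lyso stood above WT and Relapsed in all libraries, and Tumor overlapped every other group. The highest Tumor library, at 0.706 CPM, lay inside the Lyso range of 0.559 to 0.754 CPM. Summed over libraries, Stat4 took 0.631 counts per 1000000 counts on genes in Lyso (exact Poisson 95% interval 0.395 to 0.955) and 0.0490 in WT (0.00124 to 0.273), a ratio of 12.9 (95% interval 2.08 to 531). These intervals cover counting error only. In the same Lyso libraries 7 to 9 of the 15 T and NK genes exceeded 3 counts, against 0 to 3 in the WT libraries. Cd8a had 22, 13 and 28 counts, the pan-leukocyte gene Ptprc had 32, 39 and 27, and the T cell receptor gene Trac had 11, 9 and 3. In WT, Cd8a had 0 counts and Ptprc and Trac had at most 1. Not every gene of the T and NK list went this way. Cd28 had 4 counts in each Lyso library, against 33 in WT 3 and 22 in ITF1, and 0 in WT 1 and WT 2. The part of T-cell RNA in the Stat4 counts of Lyso was not tested.

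Stat5a and Stat5b, near-identical transducers of growth hormone and prolactin signals that neighbour Stat3 on chromosome 11, did not pass edgeR's test in any group. Reads that match both genes are not in the counts. Stat5a had 24.3, 31.2 and 35.1 CPM in WT, 48.0, 46.8 and 44.1 CPM in Lyso, and 39.3, 42.7 and 38.6 CPM in Tumor. Lyso and Tumor lay above WT in all libraries, as did 15.8% of all genes tested in Lyso and 21% in Tumor. In Lyso the adjusted p missed the threshold by edgeR, at 0.0612 for a log2 fold change of 0.58 (SE 0.16), and was 0.0408 by DESeq2. In Tumor the adjusted p was 0.135 for a log2 fold change of 0.38 (SE 0.17) by edgeR. Stat5b had 46.9–69.1 CPM in WT, 59.9–64.3 CPM in Lyso and 56.2–62.9 CPM in Tumor, and all groups overlapped. Its 95% interval against WT ran from -0.18 to 0.56 in Lyso and from -0.26 to 0.50 in Tumor on the log2 scale. Stat3 and Stat5a share 72 exonic bases on opposite strands at their ends, 0.756% of the exonic length of Stat3 and a like share of Stat5a, and strand use in the counting is not given in the sources used here. Stat6, the IL-4 transducer, had a median of 102.5 CPM in WT and at most 125.1 CPM, 111.5–119.4 CPM in Lyso and 128.4–141.2 CPM in Tumor. Tumor lay above WT in all libraries for Stat6, with a log2 fold change of 0.33 (SE 0.19, adjusted p = 0.239, edgeR), which did not pass.

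Among the kinases, Jak2, the kinase of the receptors for growth hormone, prolactin and interferon gamma, passed the test by a narrow margin in Lyso and Tumor. It had 52.6, 39.3 and 38.0 CPM in WT. It had 59.0, 70.2 and 70.3 CPM in Lyso and 60.5, 56.8 and 57.2 CPM in Tumor. Both groups lay above WT without overlap, WT 1 being the nearest. Among all genes tested, 15.8% lay above WT without overlap in Lyso and 21% in Tumor. The log2 fold change was 0.64 (SE 0.14, adjusted p = 0.0178) in Lyso and 0.45 (SE 0.14, adjusted p = 0.0412) in Tumor by edgeR. These calls were not stable. Leaving out WT 2, WT 3, Lyso 2 or Lyso 3 raised the adjusted p in Lyso above the threshold, reaching 0.0968, and in Tumor leaving out any one library of the comparison other than WT 1 did so, reaching 0.188 (edgeR). Jak1, which serves the widest set of cytokine receptors, had 130.7–188.5 CPM in WT, 132.6–140.3 CPM in Lyso and 164.0–171.8 CPM in Tumor. The 95% interval of its log2 fold change ran from -0.50 to 0.14 in Lyso and from -0.20 to 0.43 in Tumor. Tyk2, the kinase of interferon and IL-12 receptors, had 34.6–58.9 CPM in WT, 37.6–42.7 CPM in Lyso and 32.4–37.0 CPM in Tumor, and its groups overlapped WT. Its log2 fold change was -0.22 (SE 0.18, adjusted p = 0.590) in Lyso and -0.40 (SE 0.19, adjusted p = 0.169) in Tumor by edgeR. An antisense gene, 1700084C06Rik, overlaps 8.07% of the exonic bases of Tyk2, so that without strand their reads could not be told apart there.

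Of the 8 members tested, 3 were thus higher and 0 lower in Lyso than in WT, where 3.5% of all genes tested were higher and 1.21% lower. In Tumor 2 were higher and 0 lower, against 12.1% and 6.94% of all genes. Of all genes called in Lyso against WT, 74.3% were higher, and with library size as the only scaling 56.6%, a scaling that moved the median of all genes by -0.10 on the log2 scale. The median log2 fold change over the 8 members was 0.39 in Lyso and 0.36 in Tumor, and over all genes 0.00 in both. Against Relapsed, Stat2 (log2 fold change 3.23, adjusted p = 0.000561), Stat3 (2.90, adjusted p = 3.02e-06) and Jak2 (0.47, adjusted p = 0.0445) were higher in Lyso by edgeR, where 4.87% of all genes were higher. The Jak2 call was lost with library size only (adjusted p = 0.0895), with no filter on low counts (0.104), with compared groups only (0.0599), with thinning to the shallowest library (0.568), and on leaving out any one library of the comparison other than Rel (up to 0.165), all by edgeR. Against Relapsed, 1 member, Stat3, was higher in Tumor, where 11.8% of all genes were higher. In Tumor against Lyso, 2 members were lower, where 10.5% of all genes were lower and 14.2% higher. The comparisons against WT share their control libraries.

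**Figure D4:**
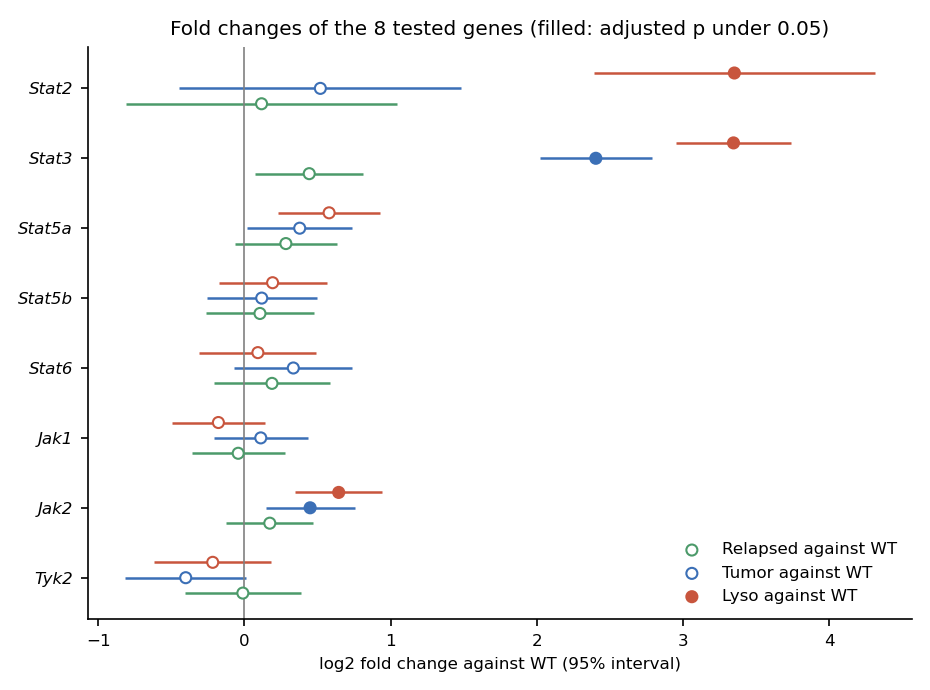
Log2 fold change against WT with its 95% interval (horizontal axis) for the 8 tested genes in Lyso, Tumor and Relapsed; filled points have an adjusted p under 0.05 (edgeR). Stat2 and Stat3 both stand at 3.35 in Lyso, Stat3 at 2.40 in Tumor, and every Relapsed point is unfilled.

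In the cell lines established from relapsed tumors, 0 of the 8 members passed edgeR's test against WT, where 0.0402% of all genes did. At an unadjusted p under 0.05 there was 1, Stat3, against 11% of all genes. The 3 lines had 63.8 (ITF1), 96.7 (Rel) and 61.8 CPM (ITM) of Stat3. The lowest line lay below the highest WT library, at 62.0 CPM, and the log2 fold change was 0.44 (SE 0.17, 95% interval 0.07 to 0.81, adjusted p = 0.375, edgeR). DESeq2 likewise called 0 members. Stat2 was spread among the lines, at 22.8, 30.9 and 10.2 CPM, with a 95% interval of -0.81 to 1.04 against WT on the log2 scale. Rel had the highest level of the 3 lines for Stat2, Stat3, Stat5a, Stat5b and Jak2, and ITM the lowest for Stat2, Stat3, Stat5b, Stat6, Jak1 and Tyk2.

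Among the upstream genes, Il6 and 9 receptor genes rose in Tumor, and 2 receptor genes rose in Lyso. Against WT, 12.1% of all genes tested were higher in Tumor and 3.5% in Lyso. Of 19 ligand genes 8 were tested, and Il6 rose in Tumor, from 9 counts over the 3 WT libraries to a mean of 29.1 CPM (adjusted p = 4.11e-06, edgeR). In Lyso, Il6 stood at 0.407 ± 0.145 CPM and did not pass, and Tslp, with 20 counts in WT in all, fell, a call lost when any one library was left out. Of 28 receptor genes 21 were tested. In Tumor 9 rose, led by Il4ra, the IL-4 receptor chain, with a log2 fold change of 4.76 (SE 0.44, adjusted p = 1.32e-05), and by Il6st, the signal chain shared by IL-6 family receptors, with one of 1.39 (SE 0.16, adjusted p = 7.33e-05) by edgeR. Osmr, the oncostatin M receptor chain, rose in both Tumor, by 2.02 (SE 0.27), and Lyso, by 1.45 (SE 0.26). Ifnar2, a chain of the type I interferon receptor, rose by 0.84 (SE 0.19, adjusted p = 0.0247, edgeR) in Lyso, where Osmr and Ifnar2 were the 2 receptors called. Csf2rb, which blood cells express, went from 1 count in WT to 1.57 CPM in Tumor. The median log2 fold change of the receptors was 0.24 in Lyso and 0.49 in Tumor. Without WT 3, 2 of 23 tested receptor genes rose in Lyso and 7 in Tumor. The fibroblast, myeloid and endothelial markers given above were high in the same Tumor libraries, and their part in the Tumor values of these genes was not tested. These lists were drawn up with earlier results of these data known.

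All 18 genes of the inhibitor list were tested. In Lyso 4 rose and 0 fell, and all that rose belong to the SOCS family. Against WT, 3.5% of all genes tested were higher in Lyso and 12.1% in Tumor. Socs3, which blocks IL-6 family receptors, went from 8.0 CPM in WT to 107 CPM (log2 fold change 3.76, SE 0.27, adjusted p = 2.50e-05, edgeR). Socs1, which blocks interferon receptors, went from 2.60 to 88.1 CPM (4.56, SE 0.46, adjusted p = 0.000212, edgeR). Socs2 and Cish, which STAT5 induces, rose by 1.94 (SE 0.34) and 2.46 (SE 0.49) on the log2 scale. In Tumor, Socs3 rose to a like level of 96.6 CPM (3.62, SE 0.27, adjusted p = 2.05e-06, edgeR), the phosphatase gene Ptpn6 rose by 1.93 (SE 0.30), and Socs5 fell by 0.67 (SE 0.17). Socs1, at 9.44 CPM, did not pass in Tumor (adjusted p = 0.0737, edgeR), and it was lower in Tumor than in Lyso by a log2 fold change of -3.20. Without WT 3, 3 inhibitor genes rose and 0 fell in Lyso, and 3 rose and 0 fell in Tumor. The part of the fibroblast, myeloid and endothelial cells whose markers were high in Tumor was not tested for these genes either. Of the 9 partner genes, Jak3, the kinase that pairs with the receptor chain of Il2rg, rose in Lyso (1.14, SE 0.28, adjusted p = 0.0380) and in Tumor (1.44, SE 0.29, adjusted p = 0.00395) by edgeR. Nmi, which binds STAT proteins, rose in Lyso by 1.63 (SE 0.28), and the coactivator genes Crebbp and Ep300 rose in Tumor by 0.83 (SE 0.17) and 0.43 (SE 0.14). Irf9, the DNA-binding partner of Stat2, had 63.8 CPM in Lyso and 22.9 CPM in WT and did not pass (adjusted p = 0.342, edgeR). Its WT libraries had 7.92, 4.64 and 56.0 CPM, the last being WT 3. Without WT 3, Irf9 passed in Lyso (log2 fold change 3.39, SE 0.63, adjusted p = 0.0138) and in Tumor (2.34, SE 0.65, adjusted p = 0.0396) by edgeR. Over the whole partner list, 2 genes then rose in Lyso and 3 in Tumor, with 0 lower and Irf9 among them in both. Not all the partner calls given above for Lyso and for Tumor thus held without WT 3.

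Of 25 tested STAT3 targets, 19 rose in Tumor and 5 in Lyso, and of 24 ISGF3 targets 5 rose in Lyso. Against WT, 12.1% of all genes tested were higher in Tumor and 3.5% in Lyso. Of 26 textbook STAT3 targets 25 were tested. In Tumor 19 rose and 2 fell, with a list median of 2.02 on the log2 scale, and in Lyso 5 rose and 0 fell, with a median of 0.25. Saa3, Serpina3n and Steap4, genes of the acute phase response and inflammation, had at most 6 counts in any WT library, and Saa3 and Serpina3n reached 101 and 81.4 CPM in Tumor. Junb, which encodes an AP-1 subunit, rose by 3.24 (SE 0.27) in Tumor and 1.57 (SE 0.26) in Lyso. Vegfa, an angiogenic factor, had 280 CPM in Tumor and 77.5 CPM in WT and did not pass (adjusted p = 0.0993, edgeR). Bcl2l1 and Birc5, which encode survival proteins, were the 2 that fell, by 0.70 and 0.68. Without WT 3, 17 rose and 0 fell in Tumor, and 4 rose in Lyso. In Lyso the 5 were Socs3, Junb, Osmr, Bcl6 and Pim1. The fibroblast markers given above were high in the Tumor libraries, and fibroblasts also express several of these genes, such as Il6, Timp1 and Serpina3n. Their part in the Tumor values was not tested.

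All 24 ISGF3 targets were tested. In Lyso 5 rose and 0 fell, with a list median of 1.83, and in Tumor 0 passed edgeR's test in either direction (2 at an unadjusted p under 0.05, both higher, and 1 by DESeq2), with a median of 0.10. The 5 were Mx1 (log2 fold change 2.99, SE 0.47), Parp14 (4.35, SE 0.79), Oasl2 (4.03, SE 0.78), Ifit2 (0.74, SE 0.16) and Eif2ak2 (1.42), antiviral and interferon-induced genes. Ifit3, with 228 CPM in Lyso and 22.7 CPM in WT, did not pass (adjusted p = 0.0539, edgeR). These counts turn on WT 3, in which Ifit3 stood at 61.0 CPM against 2.83 and 4.22 CPM in WT 1 and WT 2. Without WT 3, 21 of the 24 rose in Lyso, with a list median of 4.29, and 10 rose in Tumor, with a median of 2.61, while 0 fell in either. Ifit3 then passed in Lyso (log2 fold change 5.98, SE 0.90, adjusted p = 0.00409, edgeR). Without WT 1 the counts were 4 and 0, and without WT 2 they were 3 and 0. By the direct comparison of Tumor with Lyso, which uses no WT library, 9 ISGF3 targets were lower in Tumor (3 by DESeq2) and 0 higher, and 14 STAT3 targets were higher and 3 lower. Among all genes tested, 10.5% were lower in Tumor than Lyso and 14.2% higher. Of 7 tested STAT5 targets 4 rose in Lyso (Socs2, Bcl6, Pim1 and Cish), and in Tumor 3 rose (Pim1, Igf1 and Bcl6) and Ccnd2 fell by 0.81 (SE 0.24). Without WT 3, 8 were tested, of which 2 rose in Lyso, and 2 rose and 0 fell in Tumor. Of 7 tested STAT6 targets, Socs1 rose in Lyso, and in Tumor Klf4 (5.02, SE 0.24), Il4ra, Mrc1 and Tgm2 rose. Without WT 3, 1 of 8 tested STAT6 targets rose in Lyso and 5 in Tumor. The lists share genes, so their counts are not independent. Bcl6 and Pim1 stand on the STAT3 and STAT5 lists, and Socs2 and Cish on the inhibitor and STAT5 lists. Socs3 stands on the inhibitor and STAT3 lists, and Socs1 on the inhibitor and STAT6 lists. Osmr is a receptor and STAT3 target, Il4ra a receptor and STAT6 target, and Irf9 a partner and ISGF3 target. Mrc1, a macrophage gene, had 0 counts in WT and 6.41 CPM in Tumor. The macrophage genes C1qa and C1qb had 13 to 38 counts in Tumor against 0 in WT. Other genes of the myeloid list were present in WT. Csf1r had 17 to 166 counts in WT and 41 to 77 in Tumor, and Lyz2 had 3 to 48 and 42 to 99. The part of macrophages in the Tumor level of Mrc1 was not tested.

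**Figure D5:**
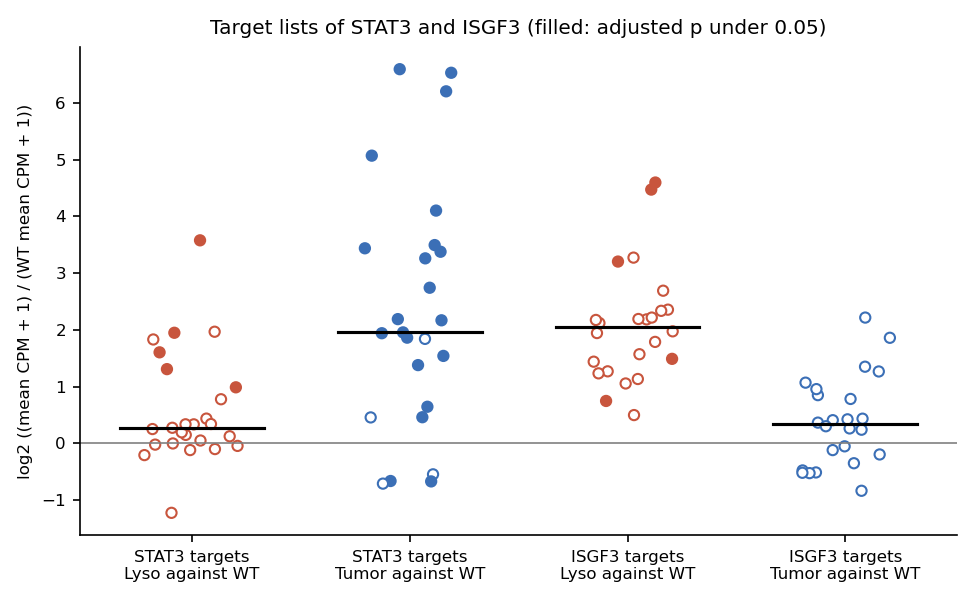
Each point is a tested gene of the STAT3 or ISGF3 target list, placed by log2 of its mean CPM plus 1 over the WT mean CPM plus 1 in Lyso or Tumor; black lines are medians and filled points have an adjusted p under 0.05 (edgeR). STAT3 targets are mostly filled and above 0 in Tumor (19 of 25), and ISGF3 targets have 5 filled points in Lyso and 0 in Tumor (21 and 10 called without WT 3).

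Over all 134 other genes of the pathway lists, each counted once, 107 were tested. In Lyso 16 were higher and 1 lower than in WT (29 higher without WT 3), in Tumor 34 higher and 4 lower, and in Relapsed 0 in either direction by edgeR, with 9 higher and 13 lower at an unadjusted p under 0.05 and 1 higher and 3 lower by DESeq2. Among all genes tested, 3.5% were higher and 1.21% lower in Lyso, and 12.1% and 6.94% in Tumor.

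The genes whose log2 CPM followed Stat3 most closely over the 12 libraries, by Pearson's r, were Iigp1 (r = 0.986), Mvd (0.981), Fnbp4 (0.981), Slfn8 (0.980) and Zbp1 (0.980). The choice rests on that measure. By Spearman's rho these genes ranked 6, 7, 49, 28 and 14 among all genes tested, with Stat3 itself counted. Iigp1, an interferon-inducible GTPase gene, had a mean of 0.0983 CPM in WT, 391 CPM in Lyso and 77.4 CPM in Tumor. Mvd, which encodes an enzyme of sterol synthesis, went from 23.1 CPM in WT to 60.8 CPM in Lyso and 48.6 CPM in Tumor. For Stat2 the closest by Pearson's r were Nub1 (r = 0.985), Parp14 (0.983), Dtx3l (0.979), Agfg1 (0.978) and Irgm2 (0.978). By Spearman's rho they ranked 48, 9, 2, 14 and 22, with Stat2 itself counted. Parp14 had 16.7 CPM in WT, 427 CPM in Lyso and 33.3 CPM in Tumor, and Dtx3l, a ubiquitin ligase gene, had 17.3, 187 and 28.7 CPM. The 12 points fall into their 4 groups and share library depth, so these values describe the pattern of group levels.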

How the data were processed

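RNA of 12 B16F10 libraries was sequenced by the authors. According to the submitters' processing notes and the methods, reads were trimmed with fastp 0.19.6 and aligned to GRCm38 with STAR 2.7.1a, and the authors deposited raw counts per gene without normalization, for analysis with DESeq2 1.24.0. The strand setting and annotation release are not given in the sources used here. Genes took 36.2% to 39.4% of the reads in each column and 43.5% to 44.8% matched no feature. The 4 rows that name no gene stayed out of library sizes and tests. Reads matching several genes are not counted. Symbols and positions came from GENCODE M21, which holds 54165 of the 54232 identifiers. Groups came from the sample labels, in which the titles number the Tumor libraries 1, 3 and 4 and the treatment text 1 to 3.

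Counts were fitted with edgeR 4.0.16 in R 4.3.3 (TMM normalization, filterByExpr by group, glmQLFit and glmQLFTest, all 12 libraries in one model without covariates), and 14924 genes were tested. A gene was called at a Benjamini-Hochberg adjusted p under 0.05. Each standard error was obtained by dividing the log2 fold change by the root of its F statistic. CPM are counts per 1000000 of the TMM-scaled library, and lengths are merged exons. On simulated counts with 200 genes changed in Lyso and a single dispersion of 0.05, run through the same test, most of the large changes were recovered. No simulated library stood apart as WT 3 did, so a spread like that of Stat2 within WT was not covered. Figures and intervals used Python 3.11.15 with scipy 1.17.1. No 2 libraries agreed within sampling noise: chi-square per degree of freedom was at least 1.59, in Lyso 2 and Lyso 3.

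The alternatives were DESeq2 1.42.0, RLE size factors, library size only, no filter on low counts, at least 10 counts in every library, compared groups only, a log2 fold change over 1 as well, the replicate number as a block, thinning to the shallowest library, other WT controls, and each library left out in turn. Named genes are the 9 members, from each pathway list the 4 called genes with the smallest p and 2 that missed, the 5 genes most like Stat3 and Stat2 (log2 of CPM plus 0.5), and marker genes; Eif2ak2, Pim1, Bcl2l1, Birc5, Timp1, Steap4, C1qa and C1qb were added after their values were seen. Members and lists were chosen with earlier results of these data known.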

Additional observations from a re-analysis of the deposited data

How the results depend on the processing

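Stat2 and Stat3 in Lyso and Stat3 in Tumor kept their direction and passed the test against WT under each alternative run, with log2 fold changes of 2.82–4.06, 3.15–3.48 and 2.20–2.54. With WT 3 as the only control, that library is assumed to vary like the other groups. WT 1, WT 2 and Tumor are shallow, and Stat2 differs more than 3-fold within WT.

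Libraries of WT, Lyso and Tumor with the same title number deviated together with correlations of -0.041 to 0.161, so these numbers were not taken to pair them. Taken in order instead, WT 1 with Tumor 1 had 0.161, WT 2 with Tumor 3 0.185 and WT 3 with Tumor 4 0.171. The other pairs of WT and Tumor reached at most 0.013. Whether WT and Tumor are paired in this order is not given, and no fit used it. With the replicate block, which used the title numbers, 2 members were higher in Lyso than WT and 1 in Tumor, since Jak2 missed (adjusted p = 0.0574 and 0.144, edgeR). Pathway genes lower in Lyso came to 0 and all genes called in Tumor to 1755. Number 4 occurs in Tumor 4 alone, so the block absorbed that library. The Tumor values of this fit therefore rest on Tumor 1 and Tumor 3, and its losses in Tumor cannot be put down to pairing.

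Members higher in Tumor than WT fell to 1, without Jak2, with library size only, no filter, compared groups only, a log2 fold change over 1 as well, thinning, or WT 1 and WT 2 as controls. With compared groups only, 2 members (Stat6 and Jak1) were higher in Tumor than Lyso, and with a log2 fold change over 1 as well, 1 was lower. DESeq2 also called Stat5a in Lyso. Pathway genes higher in Lyso than WT numbered 37 with no filter, 8 with at least 10 counts, 5 with WT 3 as the only control and 29 with WT 1 and WT 2. Those lower numbered 3 with no filter and 0 with at least 10 counts, compared groups only, DESeq2 or either choice of WT. Pathway genes higher in Tumor numbered 16 with at least 10 counts. Those lower in Tumor numbered 8 with no filter and 0 with a log2 fold change over 1 as well or WT 1 and WT 2. In Relapsed, no filter gave 1 higher and 13 lower, and DESeq2 1 and 3.

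All genes called in Lyso against WT, 703, became 1371 with no filter, 448 with a log2 fold change over 1 as well, 450 thinned, 334 with WT 3 and 439 with WT 1 and WT 2. In Tumor, 2843 became 1505 with at least 10 counts, 1607 with a log2 fold change over 1 as well, 1488 thinned and 1720 with WT 1 and WT 2. In Relapsed, 6 became 422 with no filter, 3 with at least 10 counts, 0 with compared groups only or WT 1 and WT 2, 175 with DESeq2, 1 thinned and 19 with WT 3. Of all genes called in Lyso against Relapsed, 63.4% were higher, and 52.2% with library size only.

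Leaving out 1 library at a time, members higher in Tumor than WT numbered 1–2 and members lower in Tumor than Relapsed 0–1 (Tyk2, without ITM). Pathway genes higher in Lyso numbered 12–29 (29 without WT 3) and lower 0–0. Those lower in Tumor numbered 0–5, and in Relapsed 0–1 were higher and 0–3 lower. All genes called numbered 345–916 in Lyso (345 to 357 without a Lyso library, 439 without WT 3), 1720–3714 in Tumor (1720 without WT 3, 1890 without Tumor 3) and 0–228 in Relapsed (0 without WT 3, 228 without ITM).

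Values that did not pass changed sign as follows, on the log2 scale. Stat6 in Lyso was at -0.0078 with library size only. Jak1 in Lyso was at 0.014 with WT 1 and WT 2 as controls (-0.28 to 0.014 leaving out 1 library) and in Tumor at -0.19 with WT 3. With WT 3 as the only control, Stat2 was at -0.020 in Tumor and at -0.40 in Relapsed, where leaving out 1 library gave -0.26 to 0.81. With the longest transcript as length, Stat3 in WT stood at 8.90, Stat5a at 7.64 and Tyk2 at 9.69 CPM per kb. The causes were not tested.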

Other observations

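Stat4 shares 1033 exonic bases, 26.7% of its exonic length, with Gm28177 on the same strand, and that gene had 1 count over all 12 libraries. Over the 12 libraries, 1700084C06Rik, which lies antisense to Tyk2, had 2156 counts and Tyk2 4783.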
